A study of Mus musculus with 51 samples.

Results

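H3K4me3 of the extra-embryonic ectoderm (ExE) was compared with that of the epiblast in wild-type mouse embryos at embryonic day 6.5. The comparison rested on 8 of the 51 libraries of the series, 4 from ExE and 4 from epiblast, which were all the wild-type libraries of this mark. Each tissue had 2 libraries from B6/CAST, with a C57BL6/Babr mother and a CAST/Ei father, and 2 from the reciprocal cross CAST/B6. Both tissues were separated by hand, and a library was made from a pool of 4 epiblasts or 8 ExE, about 2500 cells, by native chromatin immunoprecipitation with 250 ng of antibody after digestion with micrococcal nuclease. Pooling hides the differences between single embryos, and the labels do not say which pools came from separate litters, so p-values measure the spread between these pools. The 4 libraries of matDKO/CAST, from mothers that had deleted floxed Dnmt3a and Dnmt3b in the oocyte through Zp3-cre, entered the estimate of the spread and were otherwise set beside the result. Levels were read over 45602 autosomal peaks, the union of the 4 wild-type H3K4me3 peak lists, of which 15876 held a transcript start, 16285 lay inside a gene and 13441 outside genes.

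H3K4me3 is laid down around the starts of transcribed genes, and most strongly at starts rich in CpG sites, which can carry it whether or not the gene is active. In early embryos many starts of developmental regulators carry H3K4me3 together with H3K27me3, the mark of Polycomb repressive complex 2, and are then called bivalent. The epiblast gives rise to the embryo proper and keeps the pluripotency network until gastrulation, while the ExE is a trophoblast tissue that feeds the placenta, sustains trophoblast stem cells and signals back to the epiblast through BMP ligands. The question was which kinds of promoter and which gene families differ between these sister tissues.

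The libraries held 4462443 to 17879596 reads in epiblast and 11882329 to 17426640 reads in ExE. Libraries of the same cross and tissue correlated over peaks with r of 0.967 to 0.983, and libraries of different tissues with 0.826 to 0.936, both across peaks, which are not independent. The share of window reads in peaks was 72.2 to 87.5% in epiblast and 63.9 to 83.4% in ExE and did not separate the tissues (exact permutation p = 0.429, two-sided, 4 against 4). The summed level over the promoter peaks of 35 epiblast and pluripotency genes was 271 to 312 RPKM in epiblast and 143 to 203 RPKM in ExE, while that of 26 trophoblast transcription factors was 141 to 190 RPKM in ExE and overlapped with the 108 to 161 RPKM of epiblast. The tissues were thus separated by the epiblast genes (exact permutation p = 0.0286, the smallest that 4 against 4 allows) and not by the trophoblast genes (exact permutation p = 0.0857). In bulk tissue fewer marked cells and less of the mark per cell cannot be told apart.

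Differences are given as log2 of RPKM plus 0.5, ExE minus epiblast, with the adjusted p of limma over all 45602 peaks, and a peak was called when that p was below 0.05. Of all peaks, 13127 (28.8%) were higher and 8613 (18.9%) lower in ExE, and with a difference of at least 2-fold required these were 1352 (2.96%) and 1454 (3.19%). The split between higher and lower depended on the scaling. It was 9521 to 10652 after median centring, 11373 to 11322 after quantile normalization, 10255 to 9830 with DESeq2, and 19805 to 3837 after enrichment normalization, which scales each library between its 40th and 99th percentiles and raised the median difference over all peaks by 0.38. No peak called in the first fit was called in the opposite direction in any of these, and 7388 higher and 7847 lower peaks were called under the first scaling, median centring and quantile normalization alike. Without ExE replicate 1 of B6/CAST the number of higher peaks was 8363. In limma's test of whether the difference depended on the cross, 0 peaks reached an adjusted p below 0.05 and 1384 peaks passed an unadjusted p of 0.05. The balance of calls was 10167 higher to 5740 lower in B6/CAST alone and 2994 to 3806 in CAST/B6 alone. Over the peaks that both crosses listed for a tissue it was 5151 to 7079.

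Peaks that were higher in ExE were mostly weak, away from promoters and listed in ExE only. The B6/CAST lists held 41188 peaks in ExE and 33230 in epiblast, and the CAST/B6 lists 23940 and 25308. Of the 27240 peaks with a mean below 1 RPKM over the 8 libraries, 41.8% were higher and 14.3% lower, and of the 18362 stronger peaks 9.51% were higher and 25.7% lower. Position mattered as well: 6518 of 16285 peaks inside genes and 36.5% of those outside genes were higher, against 10.7% of peaks at transcript starts, of which 20.3% were lower. Of the 13127 higher peaks 9638 were listed in ExE only. These peaks had median levels of 0.662 RPKM in ExE and 0.262 RPKM in epiblast, a faint signal in both tissues, and their direction follows from the lists, which were made from the same libraries. Of the 25959 peaks listed in both tissues 13.4% were higher and 21.3% lower, with 7.10% and 20.9% at transcript starts, 22.1% and 21.7% inside genes and 20.8% and 22.1% outside genes. Among strong peaks away from starts the lower calls prevailed, with 36.8% inside genes and 35.7% outside.

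**Figure D1:**
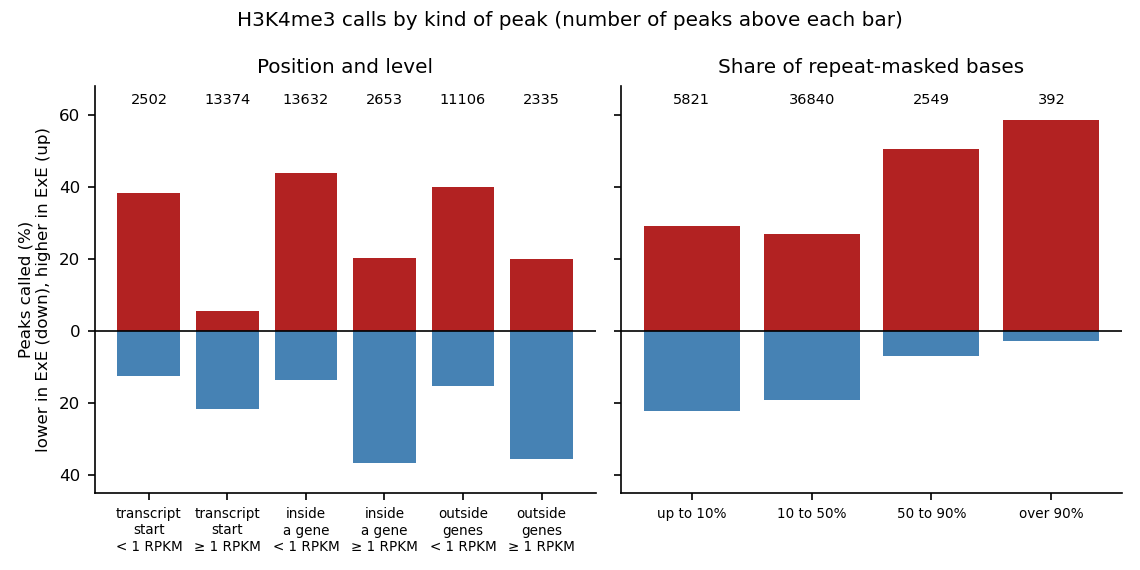
Share of H3K4me3 peaks called higher (red, upward) or lower (blue, downward) in ExE, in percent of the peaks of each kind, by position and mean level on the left and by the share of repeat-masked bases on the right. Among called peaks, weak ones were more often higher and strong ones more often lower in ExE at each position, and the share of higher peaks was 58.4% among the 392 peaks with over 90% masked bases.

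Peaks in repeats were more often higher than lower. Of the 392 peaks in which over 90% of bases are repeat-masked in the reference, 229 (58.4%) were higher in ExE and 11 (2.81%) lower, and of the 2549 with 50 to 90% masked bases 50.4% were higher and 7.02% lower. The median difference was 0.53 and 0.46 in these classes and 0.05 in the 36840 peaks with 10 to 50% masked bases. Almost all of the most repeat-rich peaks were weak (381 of 392 below 1 RPKM), so their share stands against the 41.8% of all weak peaks. Of the 392 peaks 304 were listed in ExE only, where the listing itself sets the direction. Of the 63 that both tissues listed 26 (41.3%) were higher and 3 (4.76%) lower, and of the 704 such peaks with 50 to 90% masked bases 32.0% and 9.09%, against the 13.4% and 21.3% of all peaks listed in both tissues and 23.4% and 11.3% of the weak ones. Which repeat families these are was not read from the reference, and how many of these reads map to a single place is unknown here.

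At the starts of protein-coding genes the balance was the other way round. Of 15103 such genes with a peak (12448 different peaks), 820 (5.43%) had more and 2714 (18.0%) less H3K4me3 in ExE. Differences of at least 2-fold were seen at 102 genes (0.675%) in the higher and 602 (3.99%) in the lower direction, and the median over all 15103 was -0.06. Every ExE library lay above every epiblast library at 379 genes (2.51%) and below at 1843 (12.2%). The 820 higher genes numbered 440 without ExE replicate 1 of B6/CAST, 514 without epiblast replicate 2 of B6/CAST and 524 without ExE replicate 2 of CAST/B6. They were 417 after median centring, 4000 after quantile and 6775 after enrichment normalization. The lower genes numbered 2818, 2780 and 721 under these 3 scalings. In a fit that pairs the libraries of the same cross and replicate number, with that number as a block, 1751 genes (11.6%) were higher and 3714 (24.6%) lower. Epiblast replicate 3 and ExE replicate 1 of CAST/B6 have no partner of the same number and do not enter the difference of that fit. At the 102 genes, epiblast replicate 1 of B6/CAST was the highest epiblast library in 86, and at the 602 genes ExE replicate 1 of CAST/B6 was the lowest ExE library in 520. The counts of such genes were 133 without the former and 474 without the latter, and the part of these libraries in single values was not tested.

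Promoters that also lay in an H3K27me3 peak in both tissues were lower more often than the others. Of 6165 coding genes whose peak overlapped an H3K27me3 peak in both tissues, 2180 (35.4%) had less H3K4me3 in ExE and 264 (4.28%) had more, with a median of -0.20. Of 6384 genes with an H3K27me3 peak in neither tissue, 2.93% were lower and 5.87% higher, with a median of 0.00. With replicate number as a block 44.3% of the former and 7.00% of the latter were lower, and 9.20% and 12.7% higher. The median level over the 5190 doubly marked promoter peaks was 5.19 to 7.27 RPKM in the 4 epiblast libraries and 3.58 to 5.74 RPKM in the 4 ExE libraries. That of the promoters without H3K27me3 was 7.67 to 11.7 RPKM and 8.51 to 11.0 RPKM. The 3 other scalings and the count-based tests kept this order of the medians: after enrichment normalization the medians were 0.29 and 0.54, and 9.34% against 0.799% of genes were lower. The 2224 genes with an H3K27me3 peak only in ExE had a median of -0.06, with 5.85% higher and 15.3% lower. The 330 with one only in epiblast had a median of 0.10, with 51 higher and 7 (2.12%) lower. These signs depended on the scaling. After median centring, quantile and enrichment normalization the medians were -0.19, 0.06 and 0.46 for the 2224 genes. They were -0.04, 0.23 and 0.62 for the 330, with 13, 195 and 256 higher. All coding genes had -0.19, 0.06 and 0.47.

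CpG content gave a second pattern within each of these classes. Promoters were sorted by the CpG content of 500 bp windows around the start into high, intermediate and low. Of 3604 genes with high CpG content and no H3K27me3 peak, the class of most housekeeping genes, 1.11% were higher and 1.05% lower in ExE. Of 956 genes with low CpG content and no H3K27me3 peak, 25.9% were higher and 9.41% lower, and 59 of the 71 genes in all that were at least 2-fold higher without an H3K27me3 peak were of this kind. With H3K27me3 in both tissues, 29.4% of high and 39.6% of intermediate CpG promoters were lower, and so were 495 of 1237 low CpG promoters. The share of higher genes by CpG content depended on the scaling. Over all coding genes it was 2.10% at high, 4.53% at intermediate and 15.9% at low CpG content in the first fit, 26.6%, 25.9% and 27.3% after quantile normalization, and 49.2%, 42.0% and 38.2% after enrichment normalization, which turned the order. The share of lower genes was smallest at high and largest at low CpG content under each of these scalings and median centring, but with CpG content read from 500 bp before to 500 bp after the start it was 13.4% at high, 28.3% at intermediate and 23.2% at low content.

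**Figure D2:**
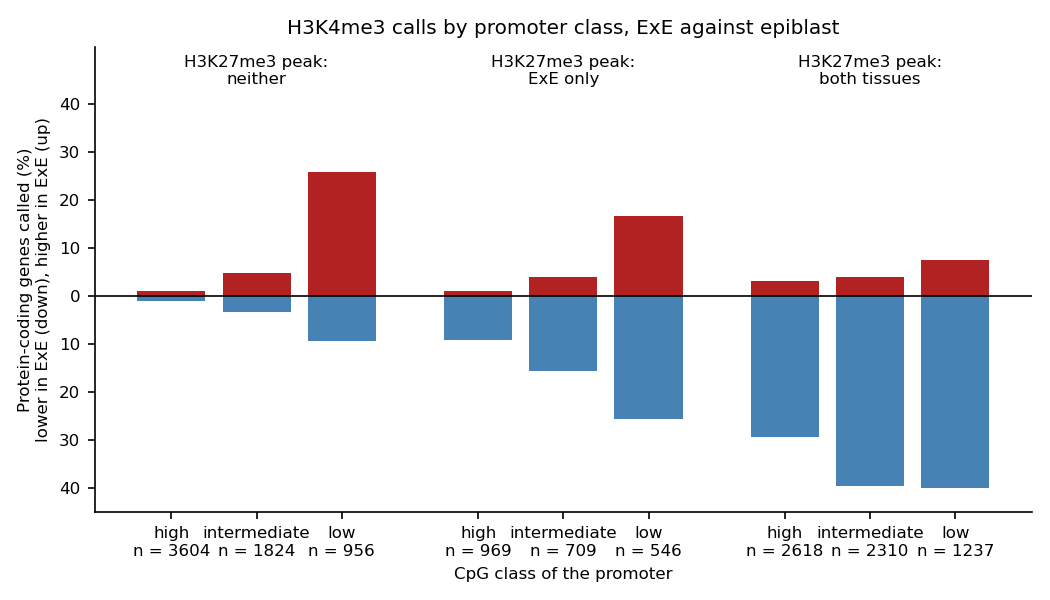
Share of protein-coding genes whose promoter peak had more (red, upward) or less (blue, downward) H3K4me3 in ExE than in epiblast, in percent of the genes of each class. Genes were sorted by the tissues in which the peak overlaps an H3K27me3 peak and by promoter CpG content, and lower genes made up 495 of the 1237 low CpG promoters with H3K27me3 in both tissues.

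Sequences of 6 promoters are printed because they stand for these classes. Elf5, a transcription factor that maintains trophoblast stem cells, had the largest rise of the trophoblast factors measured, and Zfp977, a zinc finger gene, the largest of the coding genes with at least 1 RPKM in the higher tissue. Cdx2 specifies trophectoderm and had less H3K27me3 in ExE. Pou5f1 encodes the pluripotency factor Oct4, Fgf5 a growth factor of the epiblast, and Pax6 a regulator of eye and brain. Each line gives the RefSeq window from 250 bases before to 50 after an annotated start on GRCm38.p6, 5′ to 3′ on the strand of the gene, and each window lies inside the peak that was measured. Capitals mark matches to the motifs searched on both strands: ATGCAAAT for the octamer, AGGTGTGA for T-box, CCATAAA for Cdx, GCCNNNGGC for AP-2, AGATAA for GATA, TCAAGGTCA for Esrrb, CCGGAAGT for ETS and CACGTG for the E-box motif.
Elf5: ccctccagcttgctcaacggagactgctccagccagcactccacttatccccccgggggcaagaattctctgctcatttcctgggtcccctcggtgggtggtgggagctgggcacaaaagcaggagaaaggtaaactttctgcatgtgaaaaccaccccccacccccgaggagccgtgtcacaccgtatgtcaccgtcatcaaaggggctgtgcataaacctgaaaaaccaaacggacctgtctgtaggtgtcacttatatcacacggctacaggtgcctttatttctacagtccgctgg
Zfp977: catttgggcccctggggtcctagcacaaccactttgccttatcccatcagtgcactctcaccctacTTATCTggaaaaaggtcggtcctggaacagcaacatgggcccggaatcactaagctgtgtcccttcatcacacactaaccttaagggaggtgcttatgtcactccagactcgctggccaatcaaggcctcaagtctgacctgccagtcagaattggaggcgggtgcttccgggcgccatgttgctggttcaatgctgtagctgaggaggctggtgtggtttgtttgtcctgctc
Cdx2: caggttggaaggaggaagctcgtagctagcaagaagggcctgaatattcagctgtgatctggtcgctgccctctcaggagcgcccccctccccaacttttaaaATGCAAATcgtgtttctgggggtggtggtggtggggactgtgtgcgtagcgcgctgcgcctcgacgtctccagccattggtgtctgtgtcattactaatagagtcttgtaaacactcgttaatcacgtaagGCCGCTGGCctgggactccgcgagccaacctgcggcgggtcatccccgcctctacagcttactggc
Pou5f1: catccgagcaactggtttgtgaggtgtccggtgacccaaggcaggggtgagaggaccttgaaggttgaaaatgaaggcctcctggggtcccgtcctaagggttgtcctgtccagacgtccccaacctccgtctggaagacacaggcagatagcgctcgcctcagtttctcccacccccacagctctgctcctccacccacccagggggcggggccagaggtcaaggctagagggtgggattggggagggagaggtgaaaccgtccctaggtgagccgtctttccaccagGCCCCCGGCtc
Fgf5: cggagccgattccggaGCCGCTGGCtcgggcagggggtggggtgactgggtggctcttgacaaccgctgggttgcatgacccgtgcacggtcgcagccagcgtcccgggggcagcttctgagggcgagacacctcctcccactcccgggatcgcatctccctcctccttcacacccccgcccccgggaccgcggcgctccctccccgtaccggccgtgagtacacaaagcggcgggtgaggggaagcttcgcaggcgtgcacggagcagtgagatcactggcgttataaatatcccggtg
Pax6: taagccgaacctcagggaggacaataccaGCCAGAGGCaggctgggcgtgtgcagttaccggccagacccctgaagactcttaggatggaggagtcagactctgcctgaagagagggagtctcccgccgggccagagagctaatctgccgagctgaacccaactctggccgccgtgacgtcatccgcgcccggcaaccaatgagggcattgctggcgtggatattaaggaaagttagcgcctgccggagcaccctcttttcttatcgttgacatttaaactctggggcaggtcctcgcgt
The windows lie at chr2:103423818-103424117 on the plus strand for Elf5, chr7:42592496-42592795 on the minus strand for Zfp977, chr5:147307200-147307499 on the minus strand for Cdx2, chr17:35505782-35506081 on the plus strand for Pou5f1, chr5:98253934-98254233 on the plus strand for Fgf5 and chr2:105668646-105668945 on the plus strand for Pax6.

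The 6 windows differ in CpG sites. Zfp977 has 6, Elf5 10, Pou5f1 11, Cdx2 and Pax6 18 each, and Fgf5 29 in 300 bases. Cdx2 holds an octamer and an AP-2 match, which share no base, and Pou5f1, Fgf5 and Pax6 hold an AP-2 match, and Zfp977 a GATA match. An AP-2 match was found in 16.7% of the 31396 autosomal windows of this table, a GATA match in 11.2%, an ETS match in 3.95%, an E-box match in 7.14% and an octamer in 1.75%. Octamers were thus the rarest of these 5, and matches to Cdx, T-box and Esrrb letters were in 2.77%, 1.29% and 0.417%. Such a window inside the measured peak was available for 11066 coding genes. GATA letters were in 11.6% of the windows of 533 genes that were higher in ExE, 6.29% of 1845 that were lower and 5.77% of the 11066. ETS letters were in 2.44%, 0.976% and 7.77%. These are descriptions of letters in promoters that also differ in CpG content.

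Trophoblast transcription factors had more H3K4me3 in ExE more often than coding genes at large. Of 26 measured members, 11 were higher and 3 lower, against the 5.43% and 18.0% of all coding genes, and the median difference was 0.26. After median centring 8 were higher and the median was 0.13, and after quantile and enrichment normalization 18 and 20 were higher. Of all coding genes 2.76%, 26.5% and 44.9% were higher under these scalings. Elf5 (chr2:103420001-103441000) had 3.81 and 2.92 RPKM in the B6/CAST and 2.52 and 3.27 RPKM in the CAST/B6 libraries of ExE, against 0.847, 0.578, 0.380 and 0.256 RPKM in those of epiblast. Every ExE library was thus far above every epiblast library, and the log2 difference was 1.86 ± 0.17 (SE; limma adjusted p 1.2e-10). In the windows within 1 kb of its start the difference was 3.10. Zfp42, which encodes the pluripotency marker Rex1 and is also used by trophoblast, had 4.48 to 8.06 RPKM in ExE and 0.776 to 2.23 RPKM in epiblast (difference 1.76 ± 0.16). Klf5, Tfap2c and Cdx2, all needed for the trophectoderm or its derivatives, were higher by 0.98 ± 0.16, 0.97 ± 0.15 and 0.88 ± 0.16. Cdx2 had 7.46 to 9.48 RPKM in ExE and still 3.12 to 5.27 RPKM in epiblast.

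Several other regulators of the ExE did not pass the test. Gata3, a trophoblast regulator, had 4.05 to 7.18 RPKM in ExE and 3.20 to 6.56 RPKM in epiblast, and its difference of 0.18 ± 0.16 did not pass (adjusted p 0.363). For Ascl2 the difference was -0.11 ± 0.16. Eomes, which serves both trophoblast and the later primitive streak, had 7.19 to 11.0 RPKM in ExE and 11.6 to 13.8 RPKM in epiblast (difference -0.36 ± 0.17, adjusted p 0.0789), so its libraries did not overlap and the test was still missed. With replicate number as a block its difference was -0.26 and passed (adjusted p 0.0217). Esrrb was lower in ExE, by 0.93 on the log2 scale, at a low-level peak of 0.179 to 0.414 RPKM against 0.824 to 1.53 RPKM. The 3 factors called lower were Esrrb, Tfap2a (-0.48) and Sp6 (-0.39). Within 1 kb of the start they were at -0.55, -0.82 and -0.04, of which that of Sp6 did not pass, and neither Tfap2a nor Sp6 was called after quantile normalization.

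H3K27me3 over the same peaks was fitted in the same way. Of the 26 trophoblast factors 17 had less H3K27me3 in ExE and 0 more, against 13.9% and 6.34% of coding genes, with a median of -0.86. Cdx2 was lower by 1.98 in H3K27me3, Hand1 by 1.31, Tfap2c by 1.12 and Gata3 by 1.05. Gata3 therefore had less H3K27me3 in ExE without a call in H3K4me3, and so had Gata6, an endoderm regulator, with differences of -1.32 and 0.00. All 5 GATA genes had less H3K27me3 in ExE, while Gata5, called lower by 0.36, was the only one of them with an H3K4me3 call in the first fit. With replicate number as a block 2 were higher, after quantile normalization 3 were higher and 0 lower, and within 1 kb of the start 2 were higher and 0 lower. Elf5 and Zfp42, with the largest rises in H3K4me3, had H3K27me3 differences of 0.31 and -0.32, and neither passed. H3K36me3 over the gene body, which follows transcription, was higher in ExE at 19 of the 26, where 40.9% of all coding genes were higher and 5.25% lower.

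Genes of ExE signalling and adhesion followed the factors. Of 35 measured members, 13 were higher and 3 lower in ExE. The higher members numbered 6 after median centring and 22 after quantile normalization, where 2.76% and 26.5% of all coding genes were higher. The median of 0.18 was 0.05 after median centring. Ddah1, an enzyme that clears inhibitors of nitric oxide synthase, rose by 1.44 ± 0.17, Bmp8b by 1.24 ± 0.16, Plet1, a surface marker of trophoblast progenitors, by 1.18 ± 0.16, and the growth factor gene Igf2 by 0.98 ± 0.16. Bmp4, the ligand through which ExE signals to the epiblast, had 7.54, 6.44, 6.40 and 8.58 RPKM in ExE and 6.23, 4.95, 4.05 and 3.37 RPKM in epiblast. The ranges did not overlap but nearly touched, and the difference over this long peak of 20500 bp was 0.61 ± 0.16 (adjusted p 0.00188). It was 1.76 within 1 kb of the start, and after median centring it was 0.48 and did not pass (adjusted p 0.065). Of the 28 genes of BMP, GDF and related ligands 4 (14.3%) were higher, Bmp8b, Bmp6, Bmp8a and Bmp4, and 11 (39.3%) lower, with a median of -0.17, beside the 5.43% and 18.0% of all coding genes. After quantile normalization 7 of the 28 were higher and 8 lower. Under enrichment normalization 10 were higher and 1 lower, and the median turned to 0.25, beside the 0.47 of all coding genes. Nodal, the ligand of the epiblast, was lower by 0.81 and its inhibitor gene Lefty2 by 1.05.

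**Figure D3:**
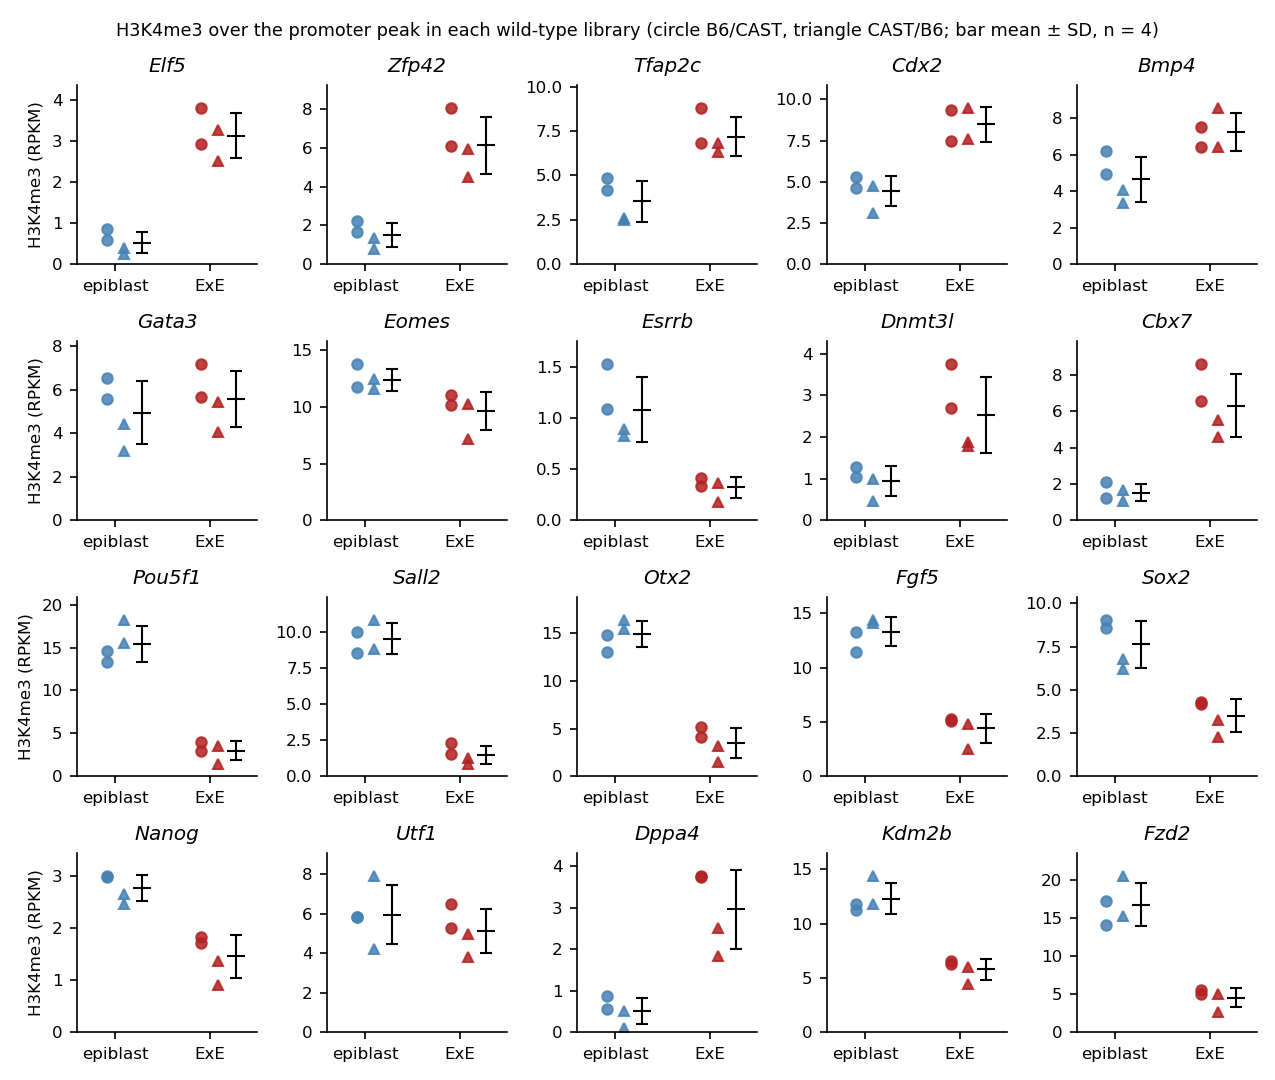
H3K4me3 in RPKM over the promoter peak of 20 regulators in each wild-type library of epiblast (blue) and ExE (red), with circles for B6/CAST, triangles for CAST/B6 and the mean ± SD of 4 libraries beside them. Elf5, Zfp42, Cbx7 and Dppa4 were higher and Pou5f1, Sall2, Otx2 and Fzd2 lower in every ExE library, while the libraries of Gata3 and Utf1 overlapped.

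Epiblast and pluripotency genes had less H3K4me3 in ExE. Of 35 members 19 (54.3%) were lower and 5 (14.3%) higher, against 18.0% and 5.43% of all coding genes, with a median of -0.39. After enrichment normalization 11 were lower and 6 higher, and the median turned to 0.14, beside the 0.47 of all coding genes, of which 4.77% were lower and 44.9% higher. Pou5f1 (chr17:35500501-35510500) had 13.3, 14.6, 15.5 and 18.2 RPKM in epiblast and 2.94, 4.03, 1.47 and 3.53 RPKM in ExE, a difference of -2.25 ± 0.21 (limma adjusted p 9.04e-11). Sall2, a zinc finger factor, had 8.56 to 10.8 RPKM in epiblast and 1.49 ± 0.623 RPKM in ExE (mean ± SD, n = 4), a difference of -2.39 ± 0.16. Otx2, which drives the exit from naive pluripotency and later head development, had 13.1 to 16.4 RPKM against 1.48 to 5.18 RPKM (-2.05 ± 0.18). Foxd3, Fgf4, Fgf5, Sox11 and Sox2 were lower by 1.89, 1.61, 1.54, 1.50 and 1.04 on the log2 scale. Nanog was lower by 0.76 ± 0.16 over its long peak and by 1.70 within 1 kb of its start. Utf1 had a difference of -0.19 ± 0.17 and did not pass.

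At several of these genes H3K27me3 went the opposite way. It was higher in ExE at Otx2 by 1.29, Sox11 by 1.16, Sall2 by 0.90, Fgf5 by 0.82 and Pou5f1 by 0.53, each past the threshold of limma, and H3K36me3 over the gene body was lower at Fgf5 by 1.20, Otx2 by 0.81, Sall2 by 0.79, Sox11 by 0.74 and Pou5f1 by 0.72. Of the 35 genes, 7 had more and 5 less H3K27me3 in ExE, against 6.34% and 13.9% of all coding genes. The 5 genes with more H3K4me3 in ExE were Dppa4, Zfp42, Dppa2, Tbx3 and Tfcp2l1. Dppa2 and Dppa4 are neighbours on chromosome 16, encode proteins that work together in early embryos, and both lacked H3K27me3 peaks. Dppa4 had 3.75, 3.76, 1.84 and 2.51 RPKM in ExE and 0.888, 0.571, 0.104 and 0.504 RPKM in epiblast (1.79 ± 0.18). Tbx3 rose by 0.69 with a fall of H3K27me3 by 2.28.

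Several families of developmental transcription factors were lower in ExE almost as a whole. All 12 LIM homeobox genes, all 8 Pax genes, all 4 Zic genes in 2 peaks and 13 of 14 Nkx genes were called lower and 0 higher, against 18.0% and 5.43% of all coding genes, with medians of -0.86, -0.81, -0.94 and -0.82. These families pattern the nervous system, muscle and internal organs later in development. Neither median centring nor quantile normalization turned a median, and under enrichment normalization they stayed below 0 at -0.42, -0.45, -0.52 and -0.36 while that of all coding genes was 0.47. The calls depended on that scaling more than the medians did, as 5 LIM homeobox, 3 Pax, 2 Zic and 4 Nkx genes were still called lower under it, beside 4.77% of all coding genes. Pax6 (chr2:105658501-105692500) had 5.67, 6.24, 3.36 and 3.97 RPKM in epiblast and 2.82, 2.66, 0.922 and 1.49 RPKM in ExE, so the tissues did not overlap, and the difference was -1.15 ± 0.16 (limma adjusted p 2.87e-07). In both tissues the B6/CAST libraries were the higher ones. Lhx3 of motor neurons, Nkx2-6 of pharynx and heart and Six3 of the forebrain were lower by 1.38, 1.28 and 1.25.

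The same direction was seen in the other neural and patterning factors, against the 18.0% lower and 5.43% higher of all coding genes. Of 29 neural bHLH genes, such as the proneural factor genes Neurog3 and Neurod1 (-1.23 and -1.21), 20 were lower and 0 higher. Of 12 POU genes 8 were lower, with Pou4f3, Pou4f2 and Pou3f2 between -1.59 and -1.34. Of 40 forkhead genes 21 were lower and 1 higher (Foxr1), and of 18 Sox genes 11 were lower and 2 higher (Sox21 and Sox7, by 0.46 and 0.37, neither of them called after median centring). Under enrichment normalization 7 neural bHLH, 7 POU, 9 forkhead and 6 Sox genes were lower and 1, 0, 9 and 4 higher. Of all coding genes 4.77% were lower and 44.9% higher under that scaling. Ferd3l, a bHLH factor, was among the 10 largest falls of all coding genes with 6.35 to 9.40 RPKM in epiblast and 0.656 to 2.21 RPKM in ExE. Of the 5 AP-2 genes, Tfap2d, Tfap2b, Tfap2e and Tfap2a were lower by 1.31, 1.06, 0.72 and 0.48, while the trophoblast member Tfap2c was higher.

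The families differed in H3K27me3. The LIM homeobox, Pax and Nkx genes had less H3K27me3 in ExE as well, at 11 of 12, 7 of 8 and 11 of 14 genes with medians of -0.73, -0.75 and -0.69, so both marks were lower there under the first scaling. All measured LIM homeobox, Pax and Nkx genes lay in an H3K27me3 peak in both tissues. Hox genes stood apart from them: 38 of 39 had less H3K27me3 in ExE, against 13.9% of all coding genes, while Hoxb1 (-0.94) and Hoxd1 (-0.52) had less H3K4me3 and 0 had more, against 18.0% and 5.43%, with a median of -0.16. After quantile normalization 11 had more and Hoxb1 alone had less, where 26.5% of all coding genes had more and 18.4% less. The 39 Hox genes share 7 peaks, so they are few independent values, and over the windows around each start 5 were higher and 7 lower. Irx genes resembled them, with 2 of 6 lower in H3K4me3 (Irx5 and Irx6) and 5 of 6 lower in H3K27me3. Of the 31 gastrulation genes 14 (45.2%) were lower and 2 (6.45%) higher, against 18.0% and 5.43% of all coding genes (Msgn1 and Hand1 were higher, the latter not called after median centring). Under enrichment normalization 4 were lower and 8 higher, where 4.77% and 44.9% of all coding genes were. Wnt3a was lower by 1.45, Cer1 by 1.39 and Gsc by 1.28, and the streak marker T had 3.94 to 5.04 RPKM in ExE and 4.20 to 10.4 RPKM in epiblast, which overlapped (-0.59 ± 0.19, adjusted p 0.0095).

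**Figure D4:**
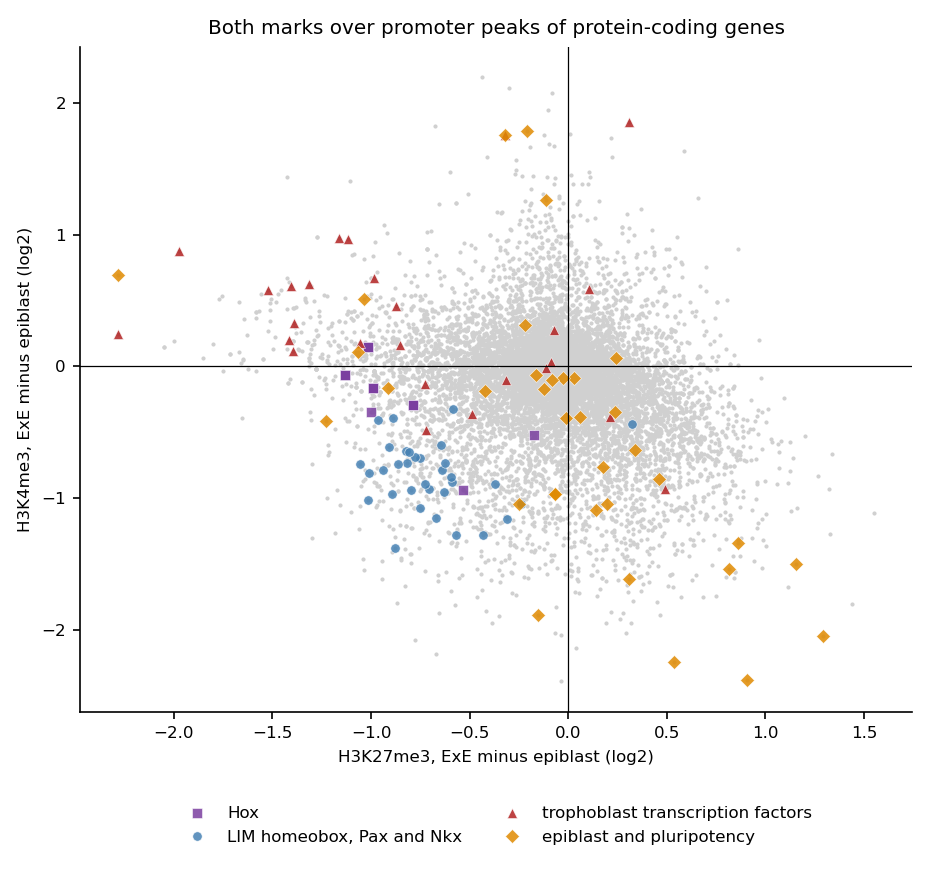
Differences of H3K4me3 (vertical) against H3K27me3 (horizontal) between ExE and epiblast, both as log2 of RPKM plus 0.5 over the promoter peak, for 15103 protein-coding genes (grey) and the members of 4 gene groups. Otx2 and a few other epiblast genes lie at the lower right, while the epiblast group as a whole is centred near 0 for H3K27me3. LIM homeobox, Pax and Nkx genes lie mostly at the lower left, trophoblast factors such as Cdx2 at the upper left and Hox genes near 0 for H3K4me3.

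Over all coding genes lower H3K4me3 came with either direction of H3K27me3. Of the 2714 genes with less H3K4me3 in ExE, 508 (18.7%) had more and 467 (17.2%) less H3K27me3, and of the 11569 genes without an H3K4me3 call 3.62% had more and 12.4% less. Of the 820 genes with more H3K4me3, 31 had more and 204 (24.9%) less H3K27me3. H3K36me3 over the gene body was lower at 652 (24.0%) of the genes with less H3K4me3, at 3 (0.366%) of those with more, and at 5.25% of all. It was higher at 2.80% of the former and 51.5% of the latter, beside the 40.9% of all coding genes. The labels say that each chromatin sample was divided among the antibodies, so the marks are not fully independent, although replicate 3 of the CAST/B6 epiblast has no library of the other marks here.

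Genes of neurons and of the cell surface were lower more often than the 18.0% of all coding genes and the 35.4% of those with H3K27me3 in both tissues. Of 71 neurotransmitter receptor genes 51 were lower and 1 higher (Htr5b, not called after median centring), of 84 potassium channel genes 54 were lower and 0 higher, and all 12 genes with symbols in Cacna, the voltage-gated calcium channel subunits, were lower, the highest share of any symbol family with at least 10 measured genes. Nkx, Dlx (10 of 11 in 4 peaks), Pcdh (8 of 10) and Wnt (14 of 18) followed. Under enrichment normalization 25 of the receptor and 15 of the potassium channel genes were lower and 4 of each were higher, where 4.77% of all coding genes were lower and 44.9% higher. The calcium channel genes ranged from -1.47 at Cacna1e to -0.50 at Cacna1c. Kcnj3, a subunit of heart and brain potassium channels, had 11.3, 11.1, 12.4 and 8.07 RPKM in epiblast and 2.05, 2.64, 1.23 and 2.42 RPKM in ExE (-2.14 ± 0.18), and the serotonin receptor gene Htr1a had 6.94 to 8.06 RPKM against 0.643 to 2.27 RPKM (-2.08 ± 0.18). Astn1, a neuronal adhesion gene, shared the largest fall of all named genes with Sall2, with at least 9.30 RPKM in every epiblast library and 1.27 to 2.02 RPKM in ExE (-2.39 ± 0.17). Gap43 of growing axons, the glycine receptor gene Glra1 and the ubiquitin ligase gene March1 were lower by 2.03, 2.03 and 2.04. Kcnj3, Htr1a, Astn1, Gap43, Glra1 and March1 all lay in H3K27me3 peaks in both tissues, and H3K27me3 was lower at Htr1a by 0.78 and not called at the others.

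Signalling and adhesion families differed among themselves. Of 18 Wnt ligand genes 14 were lower, led by Wnt3a, and 3 were higher (Wnt7b by 0.72, Wnt6 and Wnt10a, which share a peak, by 0.38, without a call after median centring). Of 16 FGF ligand genes 11, of 10 Frizzled receptor genes 7 and of 21 ephrin and Eph receptor genes 14 were lower, with 0 higher in each. Under enrichment normalization 4 Wnt ligand, 5 FGF ligand, 1 Frizzled and 2 ephrin or Eph receptor genes were lower and 3, 1, 1 and 3 higher. Of all coding genes 4.77% were lower and 44.9% higher under that scaling. Fzd2, a Wnt receptor gene, had 17.3, 14.1, 20.5 and 15.3 RPKM in epiblast and 5.01, 5.54, 2.68 and 5.01 RPKM in ExE (-1.80 ± 0.17), and H3K27me3 was higher there by 1.44. Efna5, an ephrin gene, went from 18.0 to 27.9 RPKM to 8.05 to 11.9 RPKM with a rise of H3K27me3 by 1.55. Of 31 cadherin genes outside the protocadherin clusters 20 were lower and 2 higher, Pcdh12 and Cdh5, of which Cdh5 (0.51) was called neither after median centring nor after quantile normalization, and Cdh12 had the largest fall (-1.92 ± 0.18). Of 35 genes with collagen symbols 21 were lower and 0 higher, and under enrichment normalization 9 were lower and 4 higher. Other lists were near the 18.0% of all coding genes, with 4 of 22 integrin genes, 2 of 14 claudin genes, 1 of 10 laminin genes, 1 of 7 FGF receptor genes and 9 of 43 clustered protocadherin genes lower, and 1, 2, 0, 0 and 5 higher. Under enrichment normalization the medians of the ephrin, forkhead, Sox and T-box lists went from below 0 to 0.05, 0.07, 0.07 and 0.03, and those of the gastrulation, Hox and Irx genes to 0.15, 0.15 and 0.37, beside the 0.47 of all coding genes.

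Genes of chromatin regulators were called about as often as coding genes at large. Of 31 Polycomb genes 1 (3.23%) was higher and 4 (12.9%) lower and of 14 genes of DNA methylation 1 (7.14%) was higher and 3 (21.4%) lower, near the 5.43% and 18.0% of all coding genes, and of 18 H3K4 methyltransferase and demethylase genes Setd1b alone was called (-0.43, and -0.26 without a call within 1 kb of the start). Cbx7, a reader of H3K27me3, had 8.62, 6.59, 4.60 and 5.51 RPKM in ExE and 2.10, 1.22, 1.07 and 1.66 RPKM in epiblast (1.76 ± 0.16, limma adjusted p 1.2e-10). Kdm2b, which brings a Polycomb complex to CpG islands, was lower by 1.03, and Phc1 and Cbx2 by 0.75 and 0.60. Within 1 kb of the start Phc1 was at -0.40 and did not pass. Dnmt3l, the cofactor of the de novo DNA methyltransferases, rose by 1.06 ± 0.17 with 1.79 to 3.75 RPKM against 0.455 to 1.29 RPKM, though within 1 kb of its start the difference of 0.43 did not pass. Dnmt3a and Dnmt3b were lower by 0.41 and 0.39 with adjusted p of 0.0367 and 0.0375, close to the threshold, and Dppa3 by 0.42. Within 1 kb of the start these were -0.30, -0.16 and -0.43, and none of the 3 passed. With replicate number as a block Dppa3 was not called either. Tet1 had 0.517 to 0.914 RPKM in ExE and 0.347 to 0.704 RPKM in epiblast, and its difference of 0.21 did not pass. Kat6b, a histone acetyltransferase gene, was among the 10 largest rises with 3.77 to 6.99 RPKM against 0.297 to 1.56 RPKM (1.95 ± 0.19).

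Germline genes, active in germ cells and meiosis, are mostly kept silent in the embryo proper. Of 41 measured members 17 (41.5%) were higher and 3 lower (Dmc1, Stag3 and Dppa3, none of them called after quantile normalization), with a median of 0.31. All coding genes had 5.43% higher, but the germline peaks were weak, with median levels of 1.38 RPKM in ExE and 0.789 RPKM in epiblast. Of all peaks at transcript starts with a mean below 1 RPKM 38.2% were higher, a share near that of the germline genes. Of those with a mean of at least 1 RPKM 5.60% were higher, and the germline genes were not divided by level. After median centring 11 germline genes were higher, where 2.76% of all coding genes were. The ExE and epiblast libraries did not overlap at 5 of them on the higher side. Tex19.1, a regulator of retrotransposons in germ cells and placenta, had 4.11, 2.73, 2.67 and 2.74 RPKM in ExE and 1.41, 0.568, 0.259 and 0.691 RPKM in epiblast (1.59 ± 0.20). Sohlh2, a regulator of early germ cells, and Syce1, a part of the meiotic synaptonemal complex, rose by 1.06 and 0.90. Zfp42 belongs to this list too.

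The 10 largest rises at coding genes were mostly at promoters of low CpG content. They were at Zfp977, Triml2, AU018091, Kat6b, Elf5, Gm14443, Dppa4, Nlrc3, Zfp42 and Cbx7, 8 of them of low CpG content, and 0 lay in an H3K27me3 peak in both tissues. Of all 15103 coding genes 2774 were of low CpG content and 6165 lay in an H3K27me3 peak in both tissues. Zfp977 (chr7:42590501-42594500) had 6.53, 5.36, 4.23 and 4.71 RPKM in ExE and 1.57, 0.778, 0.213 and 0.717 RPKM in epiblast, a difference of 2.20 ± 0.17 (limma adjusted p 3.89e-12), and H3K36me3 over its body rose by 1.30. Triml2 (2.12 ± 0.18) and Zfp42 both lie on chromosome 8 between 43177501 and 43310500. Of 366 Zfp genes 17 (4.64%) were higher, near the 5.43% of all coding genes, and 35 (9.56%) lower, beside 18.0%. With replicate number as a block 43 were higher and 54 lower, where 11.6% and 24.6% of all coding genes were. Zfp977, Zfp640 (1.74) and Zfp985 (1.05) were among the higher ones. Of 17 Platr genes, non-coding transcripts named for pluripotency, 7 (41.2%) were higher and 2 (11.8%) lower, with Platr20 at 1.69, against 18.7% and 23.7% of all 1561 long intergenic non-coding genes with a peak.

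Genes used by every cell were hardly called. Of 73 ribosomal protein genes 2 were higher (Rps7 and Rps4l), of 48 proteasome genes 1 (Psmb11, which belongs to the thymus), of 34 tRNA synthetase genes 1 (Mars2), and 0 were lower in each. Their medians were 0.10, 0.01 and 0.00, beside the -0.06 of all coding genes, of which 5.43% were higher and 18.0% lower. After quantile normalization 42 of the ribosomal genes were called higher, where 26.5% of all coding genes were, and after enrichment normalization 66, where 44.9% were, with a median of 0.63 beside the 0.47 of all coding genes. With replicate number as a block 17 of the ribosomal genes were higher, where 11.6% of all coding genes were. Of the placental families, 0 of the 25 prolactin family genes and 2 of the 29 Psg and Ceacam genes had a peak at this stage. Of 9 cathepsin genes with a peak 4 were higher (Ctsz, Ctsl, Ctsh and Ctsb) and 0 lower, against 5.43% and 18.0% of all coding genes. Ctsz alone was called after median centring, where 2.76% of all coding genes were higher. After quantile normalization 8 were called higher, where 26.5% of all coding genes were.

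Markers of neighbouring tissues were looked at in the same way. Of 29 measured visceral endoderm markers, the layer that covers both tissues, 13 were higher and 4 lower in ExE, against 5.43% and 18.0% of all coding genes. The higher ones numbered 6 after median centring and 18 after quantile normalization, where 2.76% and 26.5% of all coding genes were higher. Cubn, an endocytic receptor gene, rose by 1.38, the regulator gene Hnf4a by 1.10 and Ttr, a transport protein gene, by 1.06. Of the 4 lower markers 2 were at least 2-fold lower, and the largest fall was that of Cer1 (-1.39). The summed level over the list was 101 to 159 RPKM in ExE and 104 to 150 RPKM in epiblast (exact permutation p = 0.457, two-sided, 4 against 4). Afp, which encodes a secreted protein of this layer and was picked after its value was seen, had a difference of 0.07 and did not pass. Of 24 markers of blood and endothelium 22 were annotated on the autosomes and 11 had a peak. Ptprc and the annotated haemoglobin genes of the list were among those without one. Of the 11, 5 were higher and 2 lower, with sums of 31.4 to 36.3 RPKM in ExE and 25.1 to 37.6 RPKM in epiblast (exact permutation p = 0.743). Of 13 decidua and uterus markers 7 were lower and 1 higher, with sums of 24.0 to 40.5 RPKM in ExE and 42.6 to 57.2 RPKM in epiblast (exact permutation p = 0.0286). Maternal reads made up 50.8 to 50.9% in ExE and 50.5 to 51.6% in epiblast of B6/CAST, and 49.2 to 49.4% in ExE and 49.4% in epiblast of CAST/B6. The part of visceral endoderm, blood or decidua in the differences was not tested.

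**Figure D5:**
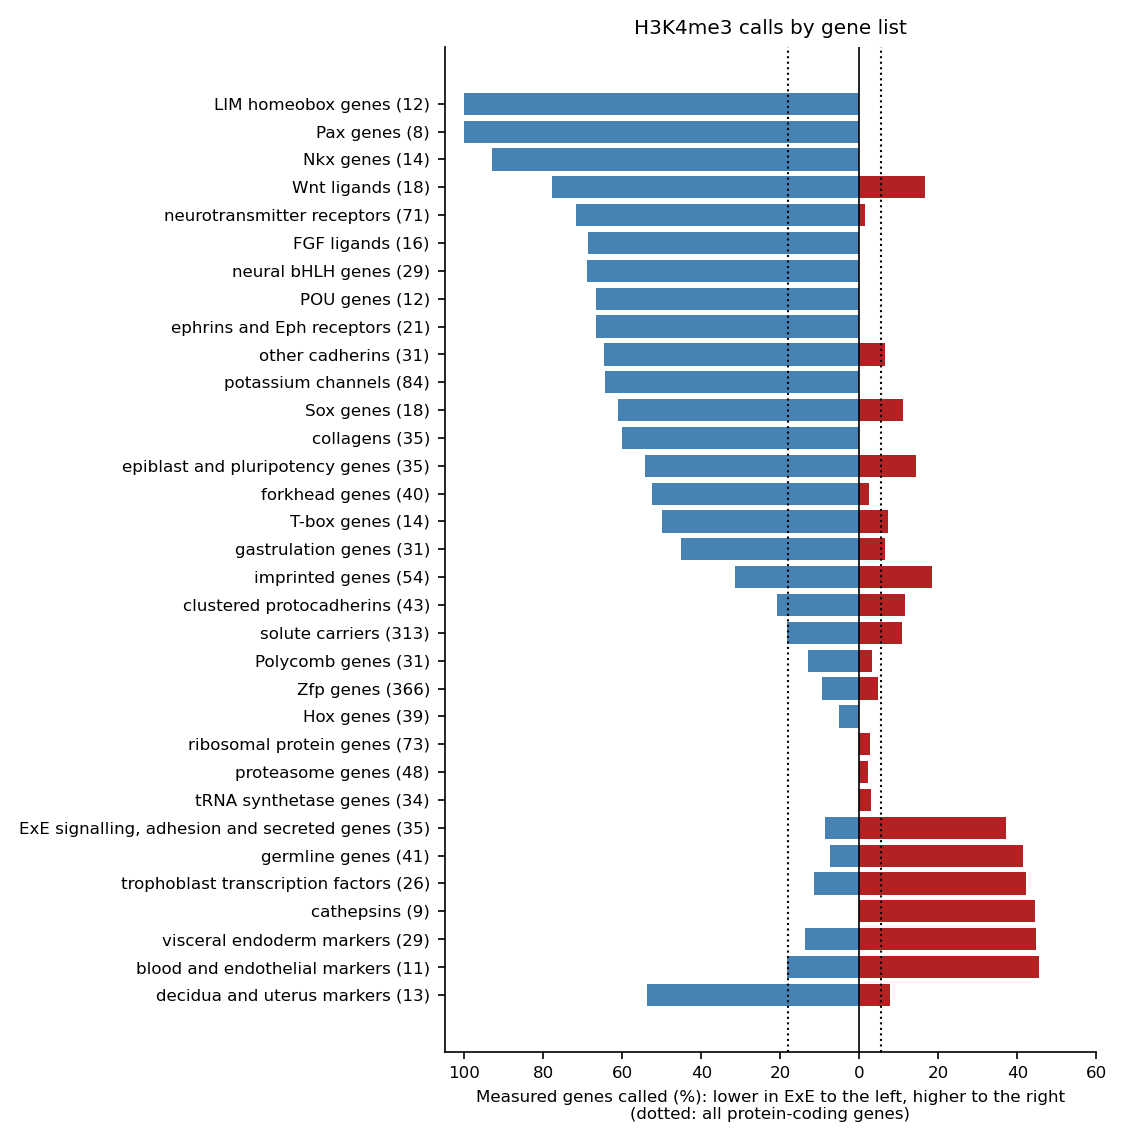
Share of the measured genes of 33 lists called lower (blue, to the left) or higher (red, to the right) in ExE, in percent, with the number of genes in parentheses and dotted lines at 18.0% and 5.43%, the shares of all coding genes. LIM homeobox and Pax genes were lower throughout, ribosomal, proteasome and tRNA synthetase genes were hardly called, and trophoblast, germline and visceral endoderm genes were on the higher side.

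Away from transcript starts differences reached a similar size. The largest rise lay outside genes on chromosome 13 (chr13:66562501-66565500, 122882 bp from 2410141K09Rik), with 6.43, 5.52, 5.08 and 5.39 RPKM in ExE and 0.951, 0.631, 0.0380 and 0.448 RPKM in epiblast, a difference of 2.67 ± 0.18 (limma adjusted p 1.61e-13). Another of the 5 largest lay on the same chromosome (chr13:66861001-66863000), 42914 bp from Gm10767, at 2.13 ± 0.22. The others had Nek2 on chromosome 1 (2.20), Slc7a1 on chromosome 5 (2.15) and Zfp516 on chromosome 18 (2.43) as the nearest coding gene. For 4 of the 5 largest falls the nearest coding gene was Grip1 (-2.11), Rbfox1 (-2.03), Lhx5 (-1.98) and Scn3b (-1.96), at distances from the start of 21699 bp for Lhx5 to 1153645 bp for Rbfox1. That near Lhx5 (chr5:120408501-120411500), a LIM homeobox gene, had 4.12, 5.83, 2.79 and 3.59 RPKM in epiblast and 0.617, 0.880, 0.516 and 0.547 RPKM in ExE, and its gene was itself lower by 1.28. All 5 falls overlapped H3K27me3 peaks of ExE, and of the 5 rises only that on chromosome 18 did. Of all 45602 peaks 9808 overlapped an H3K27me3 peak in ExE only and 9897 in both tissues.

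The same tissue difference was measured in other libraries, those of matDKO/CAST, which also entered the spread of the fit. Of the 2714 genes with less H3K4me3 in wild-type ExE 2708 had the same direction there and 1790 passed, and of the 820 with more 795 and 282. Of the 602 genes with at least 2-fold less H3K4me3 in wild-type ExE, all 602 had the same direction there and 599 passed, with medians of -1.22 in the wild type and -1.44 in matDKO/CAST. Of the 102 genes with at least 2-fold more, all 102 had the same direction and 86 passed, with medians of 1.23 and 1.06. Elf5 was higher by 1.53, Pou5f1 lower by 2.39 and Pax6 lower by 1.13 in matDKO/CAST. Ascl2 was at -1.60 there and -0.11 in the wild type. Whether the tissue difference itself changed with the cross of matDKO/CAST was not tested.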

How the data were processed

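H3K4me3 was measured by ultra-low-input native chromatin immunoprecipitation and sequencing. Per the submitters' processing notes, reads were trimmed with Trim Galore 0.4.4 and aligned with Bowtie2 2.3.2 to GRCm38, with variant positions masked. The authors deposited RPKM values over 1 kb windows of the autosomes, read without regard to the parental allele, and peak lists called with a hidden Markov model for each cross and tissue, whose score column is 0 throughout so that only positions were used. The deposited allelic read counts served for the maternal share alone. Peak lists of H3K36me3 and allelic tables of other marks were not used here.

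Peaks of the 4 lists that touched were merged, and the RPKM of a peak is the mean of the windows it overlaps. limma 3.58.1 in R 4.3.3 was fitted to log2 of RPKM plus 0.5 over 12 libraries with 1 mean per cross, maternal genotype and tissue. The contrast was the mean of both wild-type crosses, with Benjamini-Hochberg adjustment over all peaks. RPKM weights a window by the library total, so a library with less enrichment has lower peaks throughout. The values above 0 came out as whole reads within 0.05 in 100% of windows, and edgeR 4.0.16 and DESeq2 1.42.0 were run on those reads as alternatives. The other alternatives were median centring, quantile and enrichment normalization, other pseudocounts, thresholds, window rules and peak sets, input subtraction, each cross alone and each library left out. Deviations of epiblast and ExE libraries with the same number from their group means correlated with 0.345 in B6/CAST, where both pairs mirror each other, and 0.270 in the 1 pair of CAST/B6, so the numbers were taken to pair the libraries and a fit with cross and number as a block was run as an alternative. Epiblast replicate 3 and ExE replicate 1 of CAST/B6 had no partner and did not enter the difference of the block fit. The labels give no shared origin for these numbers. The fit was tested on simulated data.

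A gene was measured by the peak at its annotated start in GENCODE. Promoters with a CpG observed to expected ratio over 0.75 and over 55% GC in any 500 bp window from 700 bp before to 200 bp after the start were high, those that never passed 0.48 low. Named genes were the 10 largest coding differences in each direction called in 3 scalings, with at least 1 RPKM in the higher tissue and no overlap of libraries, up to 4 per gene list and direction, a set of 22 regulators, the 5 largest peaks without a start in each direction, and every gene of a count of 5 or fewer. H3K27me3 over the same peaks and H3K36me3 over gene bodies were fitted likewise, without the alternative scalings. The comparison, gene lists and tests were chosen with earlier results of these data known. Sequences are from RefSeq, GRCm38.p6, matched by symbol for 11573 of 15084 coding symbols. Some genes that the naming rule takes are not reported here.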

Additional observations from a re-analysis of the deposited data

Results flagged for a closer look

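In 234 groups of 4 libraries of the named genes, the gap of the highest or lowest library to its neighbour was compared with the range of its group, and 6 passed Dixon's critical value for 4 samples, where chance passes about 1 in 20. In epiblast, replicate 1 of B6/CAST stood above the others at the visceral endoderm genes Afp, with 2.74 RPKM against 0.672 to 0.968 RPKM, and Cubn, with 2.13 RPKM against 0.999 to 1.11 RPKM. Replicate 3 of CAST/B6, the shallowest of the wild-type libraries, stood below the others at Wnt3a with 3.91 RPKM against 7.08 to 7.39 RPKM. In ExE, replicate 1 of CAST/B6 was the lowest at Fgf5 with 2.48 RPKM against 4.81 to 5.29 RPKM, and at T with 3.94 RPKM against 4.89 to 5.04 RPKM. Replicate 1 of B6/CAST was the highest at Tex19.1 with 4.11 RPKM against 2.67 to 2.74 RPKM. The cause of these values was not tested.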

How the results depend on the processing

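The first fit called 13127 peaks higher and 8613 lower. The higher count was 19805 after enrichment normalization, 1727 with peaks of at least 1 RPKM only, 2994 in CAST/B6 alone, 7138 after input subtraction, 5151 over peaks of both crosses, 8450 at an adjusted p below 0.01 and 1352 with at least a 2-fold difference. The lower count was 3837 after enrichment normalization, 4617 with peaks of at least 1 RPKM, 5740 in B6/CAST alone, 3806 in CAST/B6 alone and 1454 with at least a 2-fold difference. Leaving out each library gave 8363 to 13612 higher and 6396 to 8655 lower peaks, the fewest higher without ExE replicate 1 of B6/CAST. Fewer libraries or peaks were tested in the single crosses and the filters, and the cause of the other changes was not tested. edgeR called 14331 and 9156, DESeq2 10255 and 9830. No peak was called in the opposite direction in any of these.

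With cross and replicate number as a replicate block, 16962 peaks were higher and 10789 lower. Among the named genes this pairing lost the call at Dppa3, gained one at Eomes and changed no other call. Within 1 kb of the start the difference turned at Wnt10a to -0.22 and did not pass. Low peaks are limited by depth, since the pseudocount shrinks their differences.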
